A study of Mus musculus with 8 samples.

Results

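The 10 genes described here encode the main cytosolic and mitochondrial heat shock chaperones: Hspa8, Hspa1a and Hspa1b of the HSP70 family, their partners Dnajb1 and Hsph1, the HSP90 pair Hsp90aa1 and Hsp90ab1, the small heat shock protein Hspb1, and the mitochondrial chaperonin pair Hspd1 and Hspe1. They were chosen by gene symbol, with earlier results of these data known. Each matched 1 of the 56748 Ensembl gene IDs in the count table. RNA came from mouse livers, with 4 libraries of the genotype miR-93 knockout and 4 of the genotype wild type. All 8 libraries carry the same diet label, high fat with high fructose, and the disease label MASLD (metabolic dysfunction-associated steatotic liver disease) at 16 weeks. The sources used here do not give age, sex, strain or the design of the knockout allele. They also do not say whether each library is a separate animal, so p-values cover only the variation among these 8 libraries, which may be technical.

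Heat shock proteins are molecular chaperones, which bind unfolded polypeptides and help them fold or hold them soluble. HSP70 proteins take clients from J-domain partners such as DNAJB1 and release them with the help of nucleotide exchange factors such as HSPH1, and HSP90 finishes the folding of many kinases and steroid receptors. The transcription factor HSF1 drives the inducible members through heat shock elements, which are inverted repeats of a short unit. In hepatocytes, which make secreted proteins and mitochondrial enzymes at a high rate, the constitutive members are abundant without any stress.

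The total count ran from 9187279 to 10966019 in the knockout libraries and from 5085860 to 7451026 in the wild-type libraries. Transcripts of the mitochondrial genome made up 8.08% to 15.03% of the counts in knockout and 25.4% to 77.8% in wild type, and wild-type replicate 4 stood apart with the highest share and 14287 detected genes. The deleted gene, Mir93, had 0 counts in every library of either genotype, so the table does not check the genotype label. All 11 hepatocyte marker genes that could be matched were tested, with none at 0, and their summed level was 51238.5 to 57491.8 CPM (counts scaled to library size) in knockout and 52689.2 to 73923.4 CPM in wild type.

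Promoter windows of 250 bases before to 50 bases after the annotated start were available for 7 of the 10 genes, from RefSeq on GRCm38.p6. Hspa8, Hsp90aa1 and Hsp90ab1 were not among them. The windows below are shown because they hold heat shock element letters in several arrangements, and the capitals mark each pair of units, GAANNTTC or TTCNNGAA. Each of these patterns reads the same on both strands.
Hspa1b, minus strand of chr17:34959189-34959488: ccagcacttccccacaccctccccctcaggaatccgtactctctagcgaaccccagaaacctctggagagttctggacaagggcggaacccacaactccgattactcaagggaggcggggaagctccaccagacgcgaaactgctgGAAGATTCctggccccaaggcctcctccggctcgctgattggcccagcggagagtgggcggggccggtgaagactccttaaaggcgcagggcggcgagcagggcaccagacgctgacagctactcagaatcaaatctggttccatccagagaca
Hspb1, plus strand of chr5:135887669-135887968: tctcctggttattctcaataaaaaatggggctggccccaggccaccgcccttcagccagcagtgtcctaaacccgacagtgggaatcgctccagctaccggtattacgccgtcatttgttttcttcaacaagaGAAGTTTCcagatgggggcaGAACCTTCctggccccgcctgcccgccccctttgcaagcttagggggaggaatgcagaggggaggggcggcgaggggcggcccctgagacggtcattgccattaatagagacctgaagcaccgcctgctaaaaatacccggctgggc
Hsph1, minus strand of chr5:149636266-149636565: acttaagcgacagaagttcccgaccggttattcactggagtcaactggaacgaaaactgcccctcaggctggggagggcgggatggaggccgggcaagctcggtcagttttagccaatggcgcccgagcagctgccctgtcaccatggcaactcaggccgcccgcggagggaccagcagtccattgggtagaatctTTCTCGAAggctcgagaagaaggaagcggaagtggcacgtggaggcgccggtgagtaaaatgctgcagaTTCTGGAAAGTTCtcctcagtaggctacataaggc
Hspe1, plus strand of chr1:55087898-55088197: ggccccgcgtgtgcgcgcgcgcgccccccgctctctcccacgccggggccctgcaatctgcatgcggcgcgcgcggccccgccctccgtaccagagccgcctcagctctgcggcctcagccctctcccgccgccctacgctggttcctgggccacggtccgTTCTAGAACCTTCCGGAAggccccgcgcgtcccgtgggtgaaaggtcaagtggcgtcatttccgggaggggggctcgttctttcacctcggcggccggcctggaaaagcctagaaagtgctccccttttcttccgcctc

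Of the 7 genes, which have 10 windows, 6 held at least 1 pair in any window. Counted per window rather than per gene, 15.1% of 32851 promoter windows of the same length held a pair. The 6 genes are not separate cases, because Hspa1a and Hspa1b are near-identical and Hspd1 and Hspe1 share a stretch. A run of overlapping pairs, GAANNTTCNNGAA or its reverse complement TTCNNGAANNTTC, was present in Hsph1, Hspd1 and Hspe1, against 0.603% of all windows. The Hspd1 and Hspe1 genes lie head to head, and the Hspe1 window overlaps one of the Hspd1 windows by 285 bases on the opposite strand, so both share the same run. Neither Dnajb1 window held a pair. The Hspa1a and Hspa1b windows were identical at 296 of 300 bases. Counted from the first base of the window, with the Hspa1a base first, the differences were C44T, T47C, T249G and C276T, and none fell in the pair that both hold. These matches describe letters only and are not evidence of binding.

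The microRNA missing in the knockout is shown with its seed, bases 2 to 8, in capitals, to set the chaperone transcripts against it.
miR-93-5p: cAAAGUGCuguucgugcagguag
The complement of the seed, GCACTTT, was not found in the longest annotated 3′ UTR of any of the 10 chaperone genes (GENCODE M21). Of 11598 tested genes with an annotated 3′ UTR, 1744 (15%) held it. The chaperone 3′ UTRs were 83 to 1834 bases long, and that share was not matched for length. No other form of match was searched, so this is a description only.

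Chaperone transcripts were mostly more abundant in the knockout libraries. Of the 10 genes, all of which passed the filter on low counts, 7 rose (Hspa1b, Hspa8, Hsp90aa1, Hsp90ab1, Dnajb1, Hspb1 and Hspd1), none fell, and Hspa1a, Hsph1 and Hspe1 did not pass the threshold. Over all 13204 genes tested, 10.4% rose and 10.7% fell (21.0% in either direction). Because the 10 genes were chosen with earlier results known, their count beside these shares is a description only. None of the 10 was lower at an unadjusted p under 0.05 either, nor by DESeq2 or limma-voom. Changes are log2 ratios of knockout to wild type, given ± the standard error of an edgeR quasi-likelihood fit over all genes and 8 libraries, and p-values are Benjamini-Hochberg adjusted over all tested genes with a threshold of 0.05. The median log2 fold change was 0.62 over the 10 chaperones and -0.01 over all genes tested. In 8 of the 10 genes every knockout library lay above every wild-type library, a pattern seen in 16.3% of tested genes (30.3% when either order counts). Levels below are CPM after scaling by trimmed mean of M values (TMM).

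**Figure D1:**
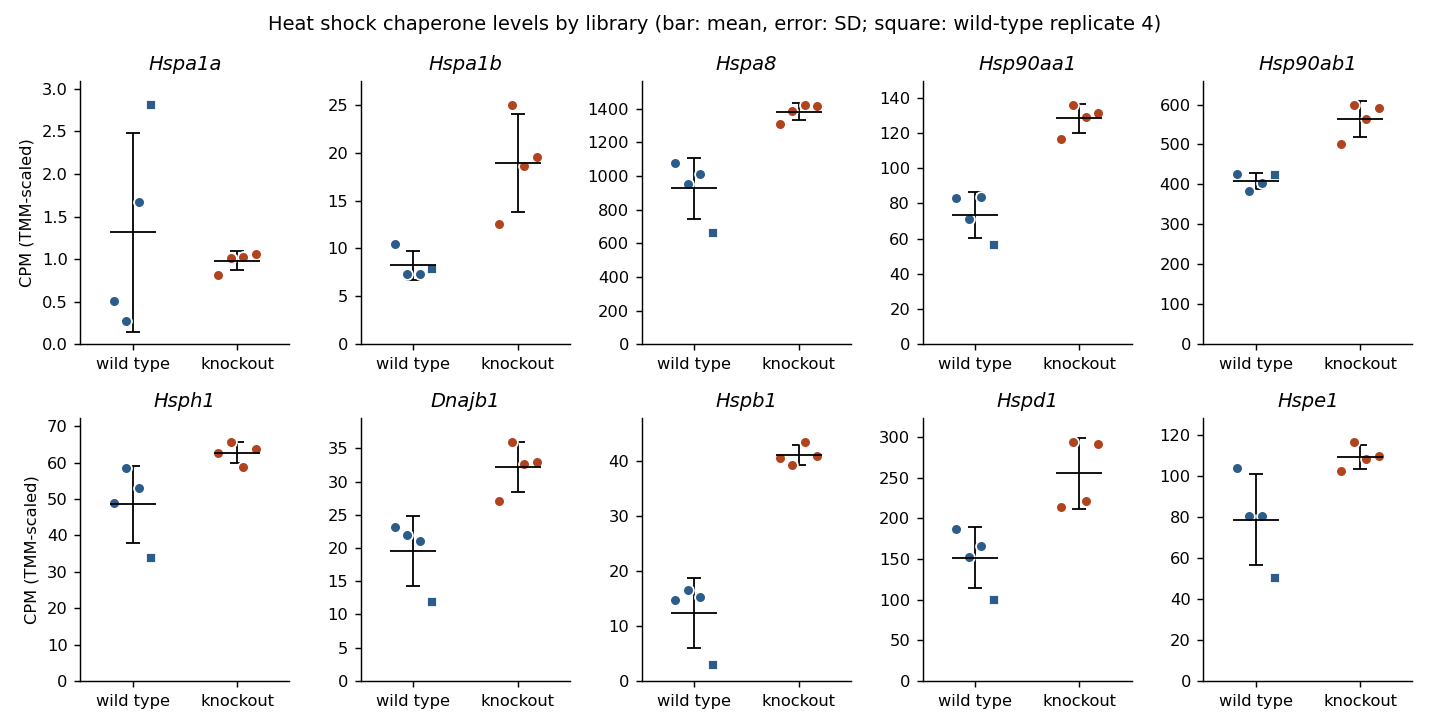
Level of each of the 10 chaperone transcripts in CPM (vertical axes, each from 0) in the 4 wild-type and 4 knockout libraries, with the mean and SD of each group as bars and wild-type replicate 4 as a square. The groups do not overlap in 8 panels, overlap in those of Hspa1a and Hspe1, and wild-type replicate 4 is the lowest wild-type library in 7 panels.

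Among the HSP70 proteins, Hspa8 (ENSMUSG00000015656), the constitutive cytosolic member that also works in clathrin uncoating and chaperone-mediated autophagy, was by far the most abundant. It stood at 1306, 1389, 1422 and 1415 CPM in knockout replicates 1 to 4 and at 1076, 951, 1014 and 661 CPM in wild-type replicates 1 to 4. The groups did not overlap, and the wild-type libraries were spread more widely because replicate 4 was low. Hspa8 rose by 0.58 ± 0.16 (adjusted p = 0.0280), a 1.49-fold difference with a 95% interval of 1.17 to 1.91. Without wild-type replicate 4 the change was 0.46 (adjusted p = 0.000163).

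Hspa1b (ENSMUSG00000090877), a stress-inducible HSP70, was at 12.5, 24.99, 18.6 and 19.6 CPM in knockout and 10.5, 7.28, 7.28 and 7.87 CPM in wild type. Every knockout library was above every wild-type library, with knockout replicate 1 closest to them. It rose by 1.19 ± 0.23 (adjusted p = 0.00469), or 2.28-fold (95% interval 1.60 to 3.23). Its near-identical neighbour Hspa1a (ENSMUSG00000091971) was close to the limit of detection, with 10, 12, 14 and 14 raw counts in knockout and 4, 2, 11 and 5 in wild type. Its log2 fold change of -0.06 ± 0.61 (adjusted p = 0.965) had a 95% interval of -1.39 to 1.28, so a change of the size seen in Hspa1b was not detectable at this depth.

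Hspa1b took 93.9% to 96.1% of the counts of both copies in the knockout libraries and 73.7% to 96.4% in the wild-type libraries. The lowest share, in wild-type replicate 4, came from 19 counts (95% exact binomial interval 48.8% to 90.9%, which covers counting error only). The sources used here do not say how reads that fit both copies were counted, so the split between them is uncertain. Summed into 1 row, Hspa1a plus Hspa1b rose by 1.08 ± 0.22 (adjusted p = 0.00627).

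Both partners of HSP70 were higher in knockout libraries, and only Dnajb1 passed the threshold. Dnajb1 (ENSMUSG00000005483), the J-domain protein that delivers clients to HSP70, was at 27.1, 36.0, 32.7 and 32.9 CPM in knockout and 23.2, 21.99, 21.1 and 11.8 CPM in wild type. The groups did not overlap, and the rise was 0.66 ± 0.18 (adjusted p = 0.0232). Hsph1 (ENSMUSG00000029657), the HSP110 exchange factor, was at 62.6, 65.8, 58.9 and 63.9 CPM in knockout and 48.9, 58.7, 52.9 and 33.7 CPM in wild type. The lowest knockout and highest wild-type libraries all but touched, and the log2 fold change of 0.35 ± 0.16 did not pass (adjusted p = 0.139). Without wild-type replicate 4 it read 0.24 and was again not called.

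The HSP90 pair moved together but not equally. Hsp90aa1 (ENSMUSG00000021270), the inducible form, was at 117, 136, 129 and 131 CPM in knockout and 83.1, 70.9, 83.9 and 56.2 CPM in wild type. The groups were clearly separate, and it rose by 0.79 ± 0.15 (adjusted p = 0.00403). Hsp90ab1 (ENSMUSG00000023944), the constitutive form, was at 500.4, 599, 563 and 591 CPM in knockout and 427, 384, 403 and 424 CPM in wild type. Here wild-type replicate 4 lay within the range of its group, and the rise was 0.46 ± 0.13 (adjusted p = 0.0249). Within a library, a ratio that no scaling can move, Hsp90aa1 stood at 0.174 ± 0.00358 of Hsp90ab1 per kilobase of exon in knockout and at 0.137 ± 0.0252 in wild type (mean ± SD over 4 libraries each). The ratio was 0.169 to 0.178 in knockout libraries and 0.101 to 0.159 in wild-type libraries, without overlap.

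The largest change of the 10 was that of Hspb1 (ENSMUSG00000004951), the small heat shock protein HSP25, which holds unfolding proteins in large oligomers and binds actin. It was at 40.5, 39.2, 43.5 and 40.9 CPM in knockout and 14.7, 16.5, 15.3 and 2.81 CPM in wild type. The knockout libraries were close to each other and far above all wild-type libraries, of which replicate 4, with 5 raw counts, was the lowest. Hspb1 rose by 1.60 ± 0.27 (adjusted p = 0.00207), or 3.04-fold (95% interval 2.02 to 4.57). Without that library the rise was 1.42 (adjusted p = 1.06e-09), from a wild-type mean of 15.5 CPM. Relative to Hspa8 per kilobase, Hspb1 was at 0.124 ± 0.00563 in knockout and 0.0525 ± 0.0240 in wild-type livers (SD, 4 libraries each), also without overlap. Other ratios did overlap between genotypes. Dnajb1 was at 0.0312 ± 0.00284 of Hspa8 in knockout and 0.0280 ± 0.00296 in wild type. Hsph1 was at 0.0269 ± 0.00174 and 0.0311 ± 0.00399, and Hspa8 relative to Hspa1b at 50.2 ± 13.1 and 74.4 ± 16.6.

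In the mitochondrial chaperonin, Hspd1 (HSP60) forms the folding chamber and Hspe1 (HSP10) its lid. Hspd1 (ENSMUSG00000025980) was at 214, 294, 222 and 291 CPM in knockout and 187, 153, 166 and 99.5 CPM in wild type. The groups did not overlap, the knockout libraries fell into a low and a high pair, and the rise was 0.75 ± 0.20 (adjusted p = 0.0229). Hspe1 (ENSMUSG00000073676) was at 103, 117, 108 and 110.1 CPM in knockout and 104, 80.7, 80.7 and 50.05 CPM in wild type. Wild-type replicate 1 lay above knockout replicate 1, and the log2 fold change of 0.46 ± 0.19 did not pass (adjusted p = 0.106). Hspe1 was called without wild-type replicate 4, at 0.32 (adjusted p = 0.0216), and without wild-type replicate 1, at 0.63. The ratio of Hspd1 to Hspe1 per kilobase of annotated exon was 1.30 ± 0.170 in knockout and 1.08 ± 0.0626 in wild-type livers (SD, 4 libraries each), with overlapping libraries. Its size depends on the exon lengths used (2642 and 1474 bases), so it does not show which transcript was more abundant. Rows whose symbols name them as pseudogenes of either gene held at most 12 counts in a library. Copies under other symbols were not searched, and how shared reads were counted is not given.

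**Figure D2:**
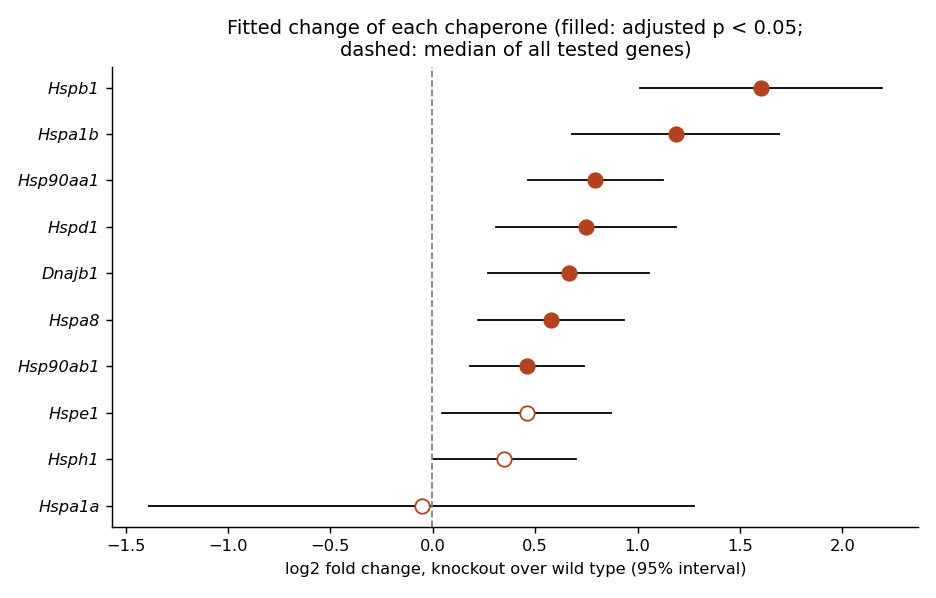
Fitted log2 fold change, knockout over wild type, of each chaperone (points) with its 95% interval (lines), filled where the adjusted p was under 0.05, and the median of all tested genes as a dashed line. Hspb1 at 1.60 and Hspa1b at 1.19 lead, 7 points are filled, and the interval of Hspa1a runs from -1.39 to 1.28.

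The calls for the moderate changes depended on single libraries. Hspa1b, Hspb1 and Hsp90aa1 were called with each of the 8 libraries left out in turn. Hspa8, Hsp90ab1 and Dnajb1 lost their calls in 5 of these 8 fits and Hspd1 in 3, with adjusted p up to 0.0855, while their log2 fold changes stayed between 0.44 and 0.87. The replicates whose removal ended calls were knockout 2 and 4 and wild-type 2 for all 4 genes, knockout 3 for all but Hspd1, knockout 1 for Hspa8, and wild-type 3 for Hsp90ab1 and Dnajb1. Calls over all tested genes fell in the same fits. Genes called higher went from 1369 to 1042, 760, 872 and 761 without knockout replicates 1, 2, 3 and 4. Without wild-type replicates 2 and 3 they were 858 and 1032. Leaving out wild-type replicate 4 ended none of the 7 calls and gave 8 of 10 genes higher, with 17.8% of all genes tested higher in that fit, 17.5% lower and 35.2% either way. With library sizes in place of TMM only Hspa1b and Hspb1 were called, with 561 of all genes called higher, and all 10 log2 fold changes were positive. This scaling put the median of all genes at 0.54 and that of the chaperones 0.58 above it.

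**Figure D3:**
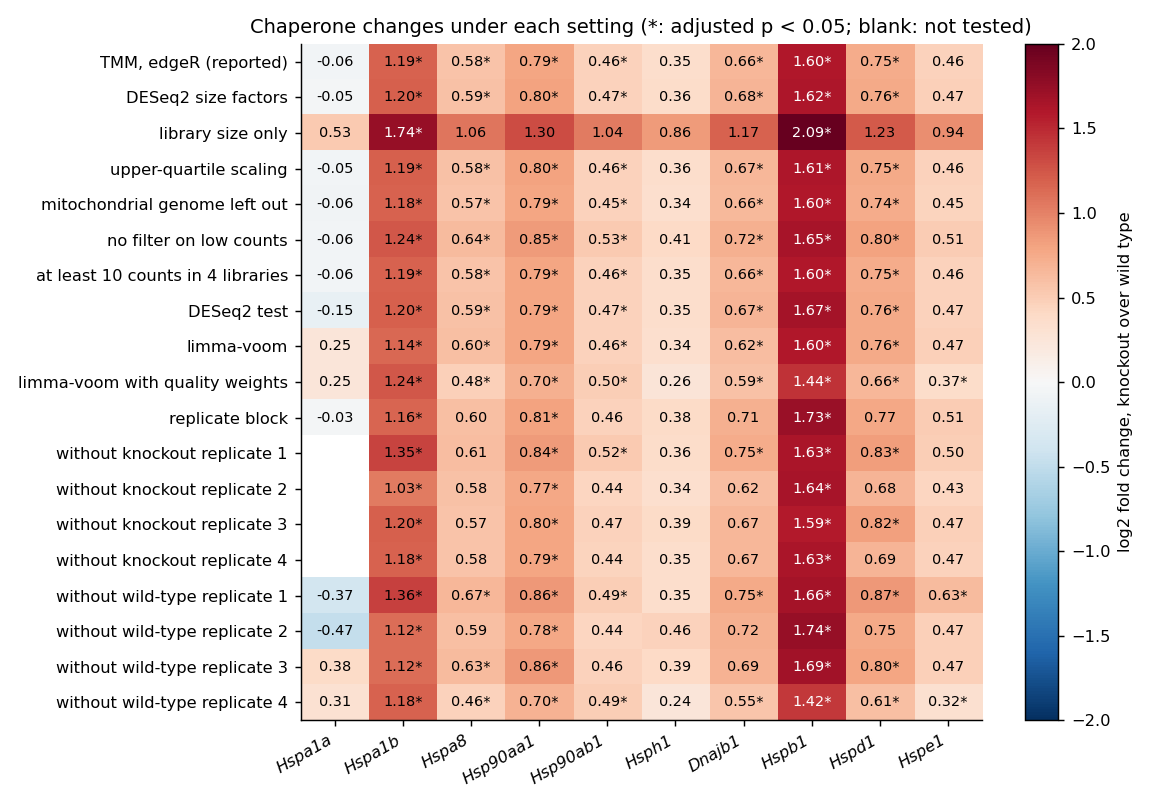
Log2 fold change of each chaperone (columns, colour and number) under the reported setting and each alternative (rows), with a star where the adjusted p was under 0.05 and a blank where the gene was not tested. Hspb1 and Hspa1b are starred in every row, Hsph1 and Hspa1a in none, and Hspe1 in 3. Hsp90aa1 lacks a star only with library size only, and Hspa8, Hsp90ab1, Dnajb1 and Hspd1 lack it with library size only, the replicate block and some libraries left out.

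Lengths here and in the ratios above joined all annotated exons of a gene, such as 1474 bases for Hspe1 and 7266 for Hsph1. They can exceed the length of the transcript present, so the order between genes depends on the annotation. Compared per kilobase of exon, the order of the levels was nearly the same in both genotypes. In knockout it ran from Hspa8 (321 ± 12.4 CPM per kilobase, SD, n = 4) through Hsp90ab1 (188 ± 14.9), Hspd1 (96.7 ± 16.4), Hspe1 (74.3 ± 3.95), Hspb1 (39.8 ± 1.76) and Hsp90aa1 (32.6 ± 2.10) to Dnajb1 (10.04 ± 1.16), Hsph1 (8.64 ± 0.397), Hspa1b (6.75 ± 1.82) and Hspa1a (0.330 ± 0.0377). Neighbours in this order did not overlap between libraries, apart from Dnajb1 with Hsph1 and Hsph1 with Hspa1b. In wild type Hspa8 was at 215 ± 42.7, Hsp90ab1 at 137 ± 6.65 and Hspd1 at 57.3 ± 14.1 CPM per kilobase, Hspb1 (11.9 ± 6.19) ranked after Hsp90aa1 (18.7 ± 3.30), and Hsph1 after that. Overlap was wider there: Hspd1 with Hspe1, and each of Hsp90aa1, Hspb1, Hsph1 and Dnajb1 with the next gene in the order.

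Hspa8 alone made up 53.3% ± 1.69 of the summed chaperone level in knockout and 53.2% ± 2.84 in wild-type livers (SD, 4 libraries each). The 10 genes together took 0.330% ± 0.0224 of all counts in knockout and 0.155% ± 0.0735 in wild type. Of the counts outside the mitochondrial genome they took 0.370% ± 0.0127 and 0.256% ± 0.0302. That share followed the mitochondrial share of the library: with the 8 libraries in order of rising mitochondrial share, it was 0.380%, 0.379%, 0.367%, 0.353%, 0.281%, 0.266%, 0.265% and 0.212%, lower at every step. The first 4 are knockout replicates 2, 4, 3 and 1 and the last 4 wild-type replicates 1, 3, 2 and 4. Knockout replicate 1 was the lowest knockout library for 8 of the 10 genes and wild-type replicate 4 the lowest wild-type library for 7. Because the mitochondrial share separates the genotypes completely, its part in the chaperone difference and that of the genotype cannot be told apart.

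**Figure D4:**
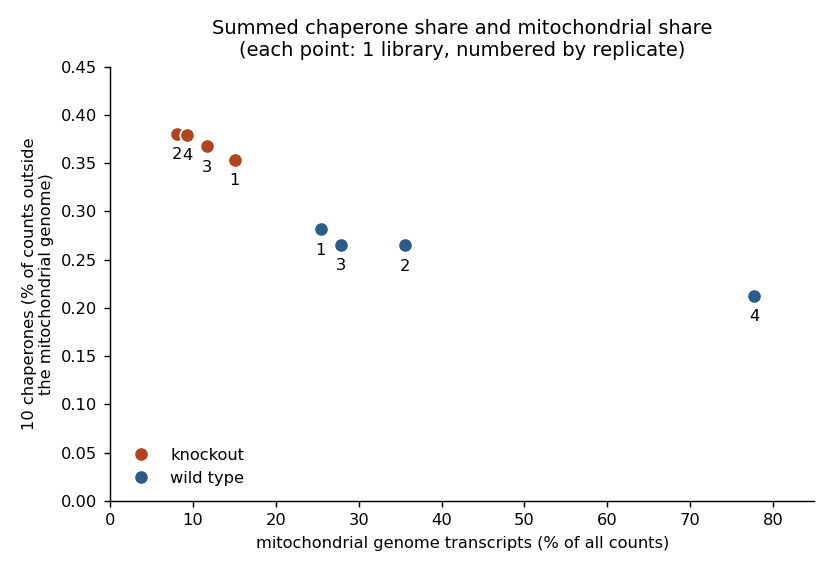
Summed share of the 10 chaperones in the counts outside the mitochondrial genome (vertical axis, percent) against the share of mitochondrial genome transcripts in all counts (horizontal axis, percent), 1 point per library, numbered by replicate. The knockout libraries lie at 0.353% to 0.380% and the wild-type libraries at 0.212% to 0.281%, and the order runs downward across all 8.

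The genes whose levels most resembled the chaperones were sought by correlating each of 13194 other tested genes with the averaged, standardised log2 CPM of the 10. The 6 closest were Acaa2 and Acat1, mitochondrial thiolases, Selenop, the secreted selenium carrier, Nop16, a nucleolar protein gene, Bdh1, the ketone body dehydrogenase, and Hspa13, a further HSP70 family member. Pearson's r over the 8 libraries was 0.995 to 0.999, and 0.992 to 0.998 without wild-type replicate 4. These points share the genotype split, the library depth and the mitochondrial share, so this is a description of the libraries only. Acaa2 rose by 1.12 ± 0.19, Selenop by 1.73 ± 0.26, Nop16 by 0.64 ± 0.14, Bdh1 by 1.23 ± 0.22 and Acat1 by 1.20 ± 0.21.

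Each chaperone was also compared with the average of the other 9 across the libraries. Correlations ran from 0.81 for Hsph1 to 0.99 for Hsp90aa1 in 9 genes, and Hspa1a, with few counts, was at -0.32. Without wild-type replicate 4 Hspa1a was at 0.37, and the other 9 ran from 0.69 for Hsph1 to 0.99. No other library was left out for these correlations, so whether the sign of Hspa1a rests on that library alone was not tested.

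The other genes of the folding machinery were taken from 8 lists of mainly cytosolic and mitochondrial chaperones, co-chaperones and proteases. Of 95 genes 89 could be tested, 15 rose and 6 fell, and 68 did not pass. Over all genes tested 10.4% rose and 10.7% fell, and the counts of this and the following lists are descriptions to be read beside those shares. The HSF factors did not rise: of 4 tested genes of that list, Hsf4 (-1.59 ± 0.32, adjusted p = 0.00539) and Hsf1 (-0.68 ± 0.18, adjusted p = 0.0217), the main activator of heat shock genes, fell, and Hsf2 (-0.19) and the HSF-binding factor Hsbp1 (0.29) did not pass. Hsf4 was at 12.9 ± 2.36 CPM in knockout and, spread far more widely, at 41.3 ± 23.8 CPM in wild type (SD, 4 libraries each). Hsf1 lost its call when knockout replicate 2, 3 or 4 was left out, or wild-type 2, and with library sizes it read -0.06 where the median gene read 0.54.

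Within the remaining HSP70 and HSP110 genes, 1 of 8 rose, Hspa13 (1.48 ± 0.24, adjusted p = 0.00155), which sits on microsomal membranes, and Hspa2 (0.99), Hspa4l (0.25) and Hspa14 (-0.41) did not pass. Of 14 J-domain genes 1 rose, Dnaja1 (0.49 ± 0.14, adjusted p = 0.0322), and Dnajc7, Dnaja2 and Dnajb4 were at -0.47, 0.47 and 0.35. None of 9 exchange factor and HSP70-binding genes passed edgeR's threshold (3 had an unadjusted p under 0.05, and DESeq2 called 1), with Hspbp1 at 0.53, Bag1 at 0.31, Bag6 at -0.45 and Bag5 at 0.60. None of the 4 tested small heat shock genes other than Hspb1 passed edgeR's threshold either (2 had an unadjusted p under 0.05, and DESeq2 called 2), with Hspb8 at 0.64, Hspb11 at 1.02, Hspb6 at 0.17 and Cryab at -0.10, and 5 more had too few counts. Without wild-type replicate 4, 3 J-domain genes rose and 1 fell, and 1 gene rose in each of the last 2 lists. Dnaja1 was not called when any library other than knockout replicate 1 and wild-type replicates 3 and 4 was left out.

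In the reported edgeR fit the HSP90 co-chaperones were called about as often as all genes (21.0% in either direction), but not by the other counts given below. Of 19 genes 3 rose, Fkbp5, the glucocorticoid-inducible immunophilin (2.25 ± 0.16, adjusted p = 4.37e-06), Cdc37, which brings kinases to HSP90 (1.03 ± 0.16, adjusted p = 0.00152), and Ahsa1, the activator of its ATPase (0.52 ± 0.15, adjusted p = 0.0286). Tomm34 fell (-0.82 ± 0.15, adjusted p = 0.00291), and 15 did not pass. Without wild-type replicate 4 the number that rose was 9, where 17.8% of all genes tested rose. DESeq2 called 7 higher and 1 lower, where it called 1814 of all 13204 genes higher and 1763 lower. In 8 of the 19 every knockout library lay above every wild-type library, against 16.3% of tested genes. In 3 every knockout library lay below, against 14.0%. Ahsa1 lost its call when knockout replicate 2, 3 or 4 was left out, or wild-type 3. Without wild-type replicate 1, 5 rose.

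The other mitochondrial chaperones and proteases shared the direction of Hspd1, with 6 of 16 genes higher and none lower. They included the unfoldase Clpx (1.16 ± 0.11, adjusted p = 5.30e-05), the J-domain protein gene Dnaja3 (1.14 ± 0.26, adjusted p = 0.0105) and both nucleotide exchange factors of mitochondrial HSP70, Grpel2 (0.55 ± 0.13) and Grpel1 (1.06 ± 0.27). All 16 log2 fold changes were positive, with a median of 0.33. With wild-type replicate 4 removed 10 rose, and with knockout 2, 3 or 4 or wild-type 2 removed, 3 did. None was lower at an unadjusted p under 0.05, by DESeq2 or by limma-voom.

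The TRiC chaperonin and prefoldin, which fold actin and tubulin in the cytosol, were split. Of 15 genes 4 rose, among them the TRiC subunits Cct5 (0.79 ± 0.14, adjusted p = 0.00335) and Cct4 (0.81 ± 0.17, adjusted p = 0.00728). Of the 3 that fell, Tcp1, itself a TRiC subunit, was at -0.53 ± 0.13 (adjusted p = 0.0132) and the prefoldin subunit Pfdn2 at -0.60 ± 0.12 (adjusted p = 0.00494). With library sizes Tcp1 read 0.012, below the median gene. Removing knockout replicate 2, 3 or 4 or wild-type 2 left 2 that rose, and removing knockout 2 or 4 left 1 that fell. In the endoplasmic reticulum, 14 of 16 chaperone genes rose and none fell (none at an unadjusted p under 0.05, by DESeq2 or by limma-voom), with a median of 0.80, and the smallest p-values were those of Hyou1 (1.38), Manf (1.15), P4hb (1.05) and Dnajc3 (1.14).

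**Figure D5:**
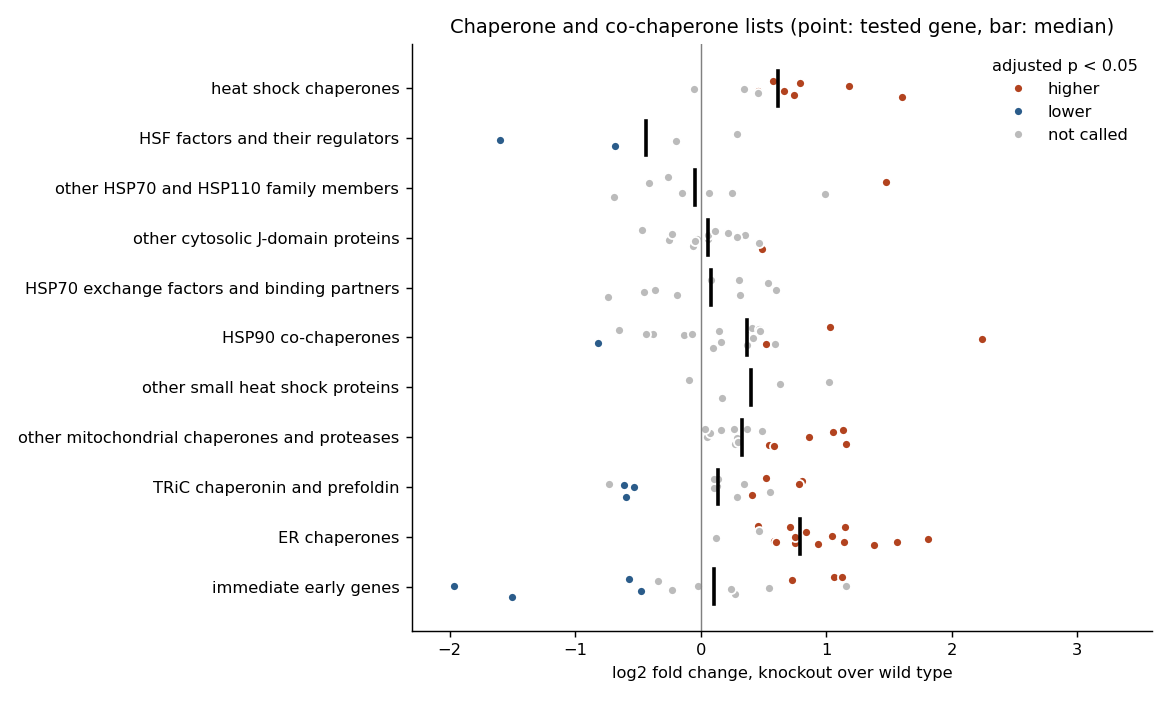
Log2 fold change, knockout over wild type (horizontal axis), of the tested genes of the chaperones, the related lists and the immediate early genes (points; cell type markers are not drawn), coloured by whether they were called higher, lower or neither, with the list's median as a bar. The heat shock chaperones (median 0.62) and the endoplasmic reticulum chaperones (0.80) have the highest medians of the lists drawn, and the HSF list has its median at -0.44.

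Of the 11 tested hepatocyte markers 2 rose, Fgb (1.48 ± 0.13) and Apob (0.46 ± 0.14), and 7 did not pass. Alb (-0.52 ± 0.14) and Ass1 (-0.65 ± 0.20) fell. With 1 library left out, 1 to 2 hepatocyte markers rose and 0 to 4 fell. Markers of other liver cells moved with the genotype as well. Of 11 Kupffer cell markers 7 rose, with a summed level of 183 to 220.2 CPM in knockout and 65.2 to 226 CPM in wild type, and of 10 sinusoidal endothelial markers 6 rose (169.7 to 318 against 114 to 217 CPM). Of 10 stellate cell markers 4 fell (179.9 to 208 against 196 to 477 CPM) and of 8 tested B and plasma cell markers 6 fell (15.6 to 89.0 against 62.0 to 557 CPM). The Kupffer, stellate and B and plasma cell counts depended on single libraries, at 4 to 10, 2 to 5 and 4 to 6 when 1 was left out. The endothelial count was 6 to 8 in these fits, never below the reported 6. Without wild-type replicate 4, 10 Kupffer and 8 endothelial markers rose, where 17.8% of all genes tested rose. Of T and NK cell markers 3 of 5 tested fell (5.70 to 8.52 against 10.3 to 19.3 CPM), of erythroid markers 2 of 5 fell (306 to 416 against 365 to 548 CPM), and of cholangiocyte markers 1 of 2 rose (31.4 to 33.0 against 10.1 to 20.3 CPM). With 1 library left out these counts were 0 to 4, 1 to 3 and 0 to 2. The T and NK cell count was 0 or 1 unless wild-type replicate 4 was the library left out, the erythroid count was 1 without knockout replicate 2 or 4, and the cholangiocyte count was 0 without knockout replicate 2, 3 or 4 and 2 without wild-type replicate 2 or 4. Of 8 neutrophil markers 1 could be tested, S100a9, which did not pass (0.94 ± 0.51, adjusted p = 0.210) although every knockout library lay above every wild-type library. The summed neutrophil level was 3.51 to 4.63 against 1.79 to 4.50 CPM, and Ly6g and Mpo were at 0 in every library. The part of these cells in the chaperone difference was not tested, and in whole liver fewer cells of a type and less RNA per cell cannot be told apart.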

How the data were processed

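Raw counts per Ensembl gene were deposited by the authors without normalization, and per the submitters' processing notes reads were trimmed with cutadapt 4.2 and aligned with STAR 2.7.10a on mm39. The counting tool and its treatment of shared reads are not given in the sources used here. Symbols came from a GENCODE M21 table, which named 52073 of 56748 IDs. GENCODE M21 and RefSeq tables are on GRCm38, so coordinates are given only for printed sequences.

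Knockout was tested against wild type in R 4.3.3 with edgeR 4.0.16 (quasi-likelihood, robust, TMM, filterByExpr by genotype), two-sided, with Benjamini-Hochberg adjustment at 0.05 over 13204 genes. No 2 libraries of a group were duplicates (the smallest chi-square per degree of freedom between them was 2.65), and none was left out. The smallest library limits precision most: 3 counts, the limit that a count of 0 allows, equal 1.69 CPM in wild-type replicate 4 and 0.219 to 0.455 CPM elsewhere. Log2 CPM used a prior count of 2. From each list the text names up to 4 tested members with the smallest p. The members and lists were chosen with earlier results of these data known. Alternatives used DESeq2 1.42.0 and limma 3.58.1, other scalings and filters, a replicate block and each library left out. Figures were drawn with matplotlib 3.10.9.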

Additional observations from a re-analysis of the deposited data

Results flagged for a closer look

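Hspb1 in wild-type replicate 4 lay far from the rest of its group, at 2.81 CPM (5 counts) against 14.7 to 16.5 CPM in the other 3 wild-type libraries. The gap to the nearest library was 0.865 of the group's range, above Dixon's 95% critical value of 0.829. It was the only one of 20 groups examined (10 genes in 2 genotypes) that exceeded the value, which chance exceeds in about 1 of 20 groups.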

How the results depend on the processing

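With library sizes alone, 685 genes were called (561 up and 124 down) against 2777, and 2 chaperones against 7. The replicate block gave 1267 genes and 3 chaperones (Hspa1b, Hsp90aa1 and Hspb1). Voom with quality weights called 4984 genes and 8 chaperones. Leaving out 1 library at a time gave 1489 to 4853 genes and 3 to 8 chaperones. No chaperone was called lower in any of the 18 alternatives, and Hspa1a plus Hspa1b summed were called in each, at 0.93 to 1.65. Signs changed with library sizes for Tcp1 (0.012), Alb (0.013), Hspa1a (0.53), Hsf2 (0.42), Bag6 (0.25), Dnajc7 (0.19), Hspa14 (0.22) and Cryab (0.44). Hspa1a also read 0.25 with voom and with quality weights, and -0.47 to 0.38 with 1 library left out. Cryab reached 0.018 and 0.041 without knockout replicate 3 and wild-type replicate 1. Hbb-bs read -0.046 with quality weights and -0.027 without wild-type replicate 4. The causes were not tested. Same-numbered libraries did not deviate together (r = -0.19, -0.032, -0.068 and -0.094 for numbers 1 to 4), so the numbers were not taken to pair them. Hspa1a failed the filter when a knockout library was left out. The library left out for the summed share of counts was an alternative chosen after seeing the data. Depth limits Hspa1a everywhere and, in wild-type replicate 4, Hspa1b, Dnajb1 and Hspb1, with 14, 21 and 5 counts there.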

Other observations

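Immediate early genes, which like heat shock genes respond within minutes to handling and stress, moved in both directions. Of 14 tested, 3 rose, among them Junb (1.13 ± 0.13, adjusted p = 0.000178) and Fosl2 (1.07 ± 0.17, adjusted p = 0.00144), and 4 fell, among them the phosphatase gene Dusp1 (-1.50 ± 0.15, adjusted p = 6.36e-05) and Atf3 (-1.96 ± 0.53, adjusted p = 0.0238). The list median was 0.11, and the number that fell was 1 without knockout replicate 2, 3 or 4 or wild-type 2. Their summed level was 320 to 370.2 CPM in knockout and 372 to 428 CPM in wild type, although 7 of the 14 log2 fold changes were positive. The summed chaperones were at 2384 to 2702 CPM in knockout and 1350.1 to 1975 CPM in wild type. The part of handling or stress in the chaperone difference was not tested.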
